A study of Mus musculus with 2 samples.

Results

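Lipoprotein lipase and its partners, the fatty acid receptor CD36 and the small proteins that carry or cover lipid inside the cell are encoded by 8 genes that were followed here across the cell types of perigonadal white adipose tissue (gWAT). The genes were Lpl, Gpihbp1, Angptl4, Cd36, Fabp4, Fabp5, Rbp7 and Plin2, chosen by name for their role in fatty acid uptake and binding and matched by gene symbol, and all 8 were among the 32285 genes of the count tables. They were measured by single-cell RNA sequencing of live eYFP+ cells sorted from the stromovascular fraction (SVF), the tissue that remains when floating adipocytes have been spun away. The cells came from male Cyp1a1 fate reporter mice (Cyp1a1Cre x R26LSL-eYFP), in which a cell that has once expressed Cyp1a1, a target of the aryl hydrocarbon receptor, stays marked by eYFP. One group had eaten a low-fat diet (LFD, 10% fat) and the other a high-fat diet (HFD, 60% fat), each for 12 weeks, and both had been given FICZ, an agonist of this receptor, at 10 mg/kg 5 days before collection. All cells therefore carried the reporter and had met the ligand, the sort was set to leave out cells that had never switched on Cyp1a1, and the labels gave no age. The study describes the mice of each diet as pooled, and each diet had 1 library. No spread between mice could be measured, so no comparison below has a test.

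Triglycerides carried in lipoproteins are cut by lipoprotein lipase (LPL) on the luminal face of capillaries, where GPIHBP1 moves the enzyme across the endothelial cell and holds it, and ANGPTL4 inactivates it. The released fatty acids are taken up with the help of CD36, are carried in the cytosol by the binding proteins FABP4 and FABP5, and when stored as triglyceride lie in droplets covered by perilipins such as PLIN2. RBP7 is a cytosolic retinol-binding protein of the same protein family as the FABPs. In adipose tissue FABP4 is best known from adipocytes, but capillary endothelium and macrophages express it too.

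All 8 genes are protein coding and none overlapped another gene in GENCODE M21, a release on the GRCm38 assembly, whose UCSC name mm10 is the build in the submitters' processing notes. Lpl lies on chromosome 8, 68880491 to 68907448, Gpihbp1 on chromosome 15, 75596628 to 75599481 and Angptl4 on chromosome 17, 33773750 to 33781830. Cd36 spans 107112 bases of chromosome 5, 17781690 to 17888801. Fabp5 (chromosome 3, 10012548 to 10016607) and Fabp4 (chromosome 3, 10204088 to 10208576) are neighbours, separated by 187480 bases, and Plin2 (chromosome 4, 86648386 to 86670060) and Rbp7 (chromosome 4, 149449687 to 149454978) are also on 1 chromosome. Fabp5 has near-identical processed copies elsewhere in the mouse genome, so its count is uncertain where reads fitted a copy equally well.

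RefSeq promoter sequences (GRCm38.p6) were at hand for 3 of the 8 genes. They are shown because Cd36 and Rbp7 were highest in the same cells below, whereas Plin2 was found in nearly every type. Each run gives the 250 bases before the annotated start on the minus strand, 5′ to 3′, with capitals for matches on either strand to AGGTCA, a site of nuclear receptors such as the PPARs, to GCGTG, the core of the AHR element, and to TATAAA. No match overlaps another. The Cd36 start lies inside the span given above, since other transcripts of the gene start further upstream.
Cd36, chr5:17835897-17836146: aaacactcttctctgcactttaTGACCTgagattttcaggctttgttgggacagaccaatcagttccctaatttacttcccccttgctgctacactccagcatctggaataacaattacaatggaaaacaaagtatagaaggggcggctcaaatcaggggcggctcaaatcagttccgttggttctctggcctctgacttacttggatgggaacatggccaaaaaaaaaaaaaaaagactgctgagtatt
Rbp7, chr4:149454969-149455218: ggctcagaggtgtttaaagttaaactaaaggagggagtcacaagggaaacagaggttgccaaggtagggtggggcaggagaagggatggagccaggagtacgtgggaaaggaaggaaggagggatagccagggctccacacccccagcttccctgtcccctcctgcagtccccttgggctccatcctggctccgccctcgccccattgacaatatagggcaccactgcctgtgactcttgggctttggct
Plin2, chr4:86670060-86670309: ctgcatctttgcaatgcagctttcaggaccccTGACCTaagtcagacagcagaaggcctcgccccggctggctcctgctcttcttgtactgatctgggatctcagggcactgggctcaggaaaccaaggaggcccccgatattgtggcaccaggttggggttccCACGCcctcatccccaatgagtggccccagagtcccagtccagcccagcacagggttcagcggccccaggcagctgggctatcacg
Cd36 and Plin2 each held 1 match to AGGTCA, read on the opposite strand as TGACCT, a motif found in 14% of the 32851 promoters of this length in the table. Plin2 also held 1 match to GCGTG, found in 28.2%. None of the 3 held TATAAA, found in 12.4%, and the Rbp7 window held none of the 3 motifs. These matches describe the windows only.

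After filtering there were 9294 LFD and 7879 HFD cells, whose median depth was 10223 and 12722 UMIs (unique molecular identifiers, each a counted molecule), and 21 of these cell barcodes occurred in both libraries. Cell types were named from marker lists without using the 8 genes, and 9 types with at least 100 cells in each library were compared between diets. The 10 endothelial markers summed to 8058 CPM in LFD and 10228 CPM in HFD endothelial-like cells. A level is given as CPM, the gene's counts per 1000000 UMIs summed over all cells of that type and diet, with an exact 95% Poisson interval in parentheses. HFD to LFD ratios have an exact binomial interval. All intervals cover counting error only, not differences between mice. As RNA from broken cells enters every droplet, a free RNA estimate stands beside low levels: the library's mean level of the gene times the share at which markers of foreign lineages were found in that type. These lineages were stromal, lymphoid, myeloid and endothelial. Adipocyte markers were not among them, so RNA from broken adipocytes was not estimated, and a level above the estimate may still hold it. The median over these lineages was used, and the lineages differed widely, from 5.86 to 36.4% of the library's mean level in HFD mesothelial-like cells, with endothelial markers highest there. A level whose interval did not lie above the median estimate is read as background, and the estimate from the highest lineage, added after the data had been seen, stands beside most of the levels that pass only the median one.

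Endothelial-like cells had the highest level of 5 of the 8 genes in both libraries, Fabp4, Fabp5, Cd36, Gpihbp1 and Rbp7, among the 9 types compared. For Angptl4 they were highest in HFD, with progenitor-like cells level with them in LFD. Macrophage-like cells led for Lpl and Plin2. Plin2, Angptl4, Fabp4 and Lpl were above background in both libraries of the Wt1+ stromal, cycling and progenitor-like cells, whereas Gpihbp1 and Rbp7 passed the free RNA estimate of both libraries in endothelial-like cells alone of the 9.

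**Figure D1:**
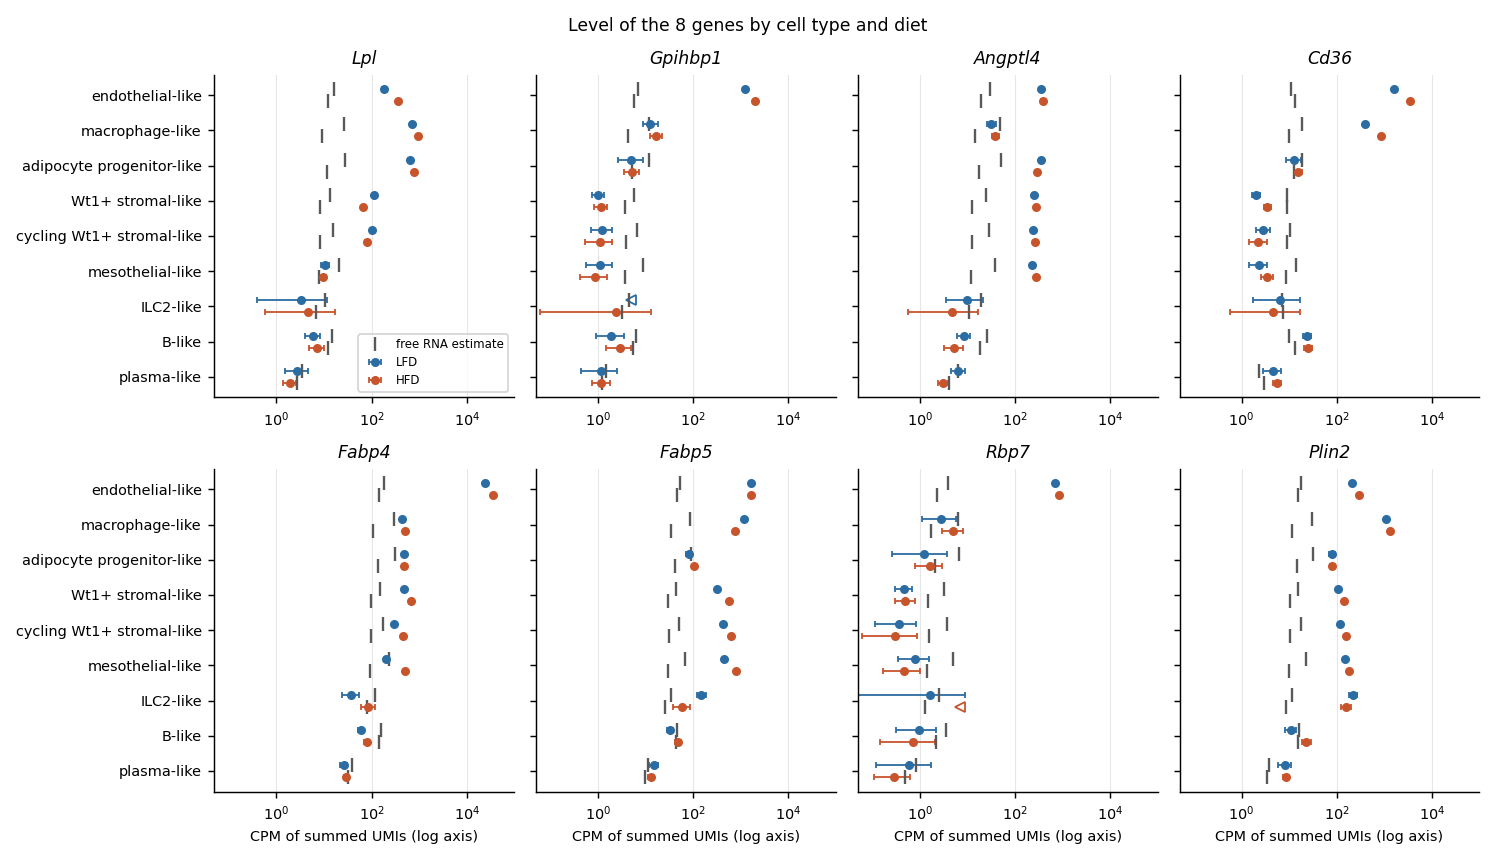
Level of each gene (CPM of summed UMIs, log axis) in 9 cell types, LFD in blue and HFD in orange, with exact 95% Poisson intervals, an open triangle for the limit that a count of 0 allows, and a grey tick for the free RNA estimate. Gpihbp1 and Rbp7 lay far above their ticks in endothelial-like cells only, while Plin2 and Angptl4 were spread over several types.

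Lpl, the lipase itself, was highest in macrophage-like cells, at 714 CPM (682 to 748) on LFD against 962 CPM (929 to 995) on HFD. Adipocyte progenitor-like cells, the Pdgfra+ collagen-producing fibroblasts, followed at 629 CPM (597 to 661) on LFD against 783 CPM (761 to 806) on HFD, below macrophages in each library with intervals that did not overlap. Endothelial-like cells had 183 CPM (170.0 to 198) on LFD against 363 CPM (339 to 387) on HFD, and Wt1+ stromal-like cells 111 CPM (108 to 114) on LFD against 65.3 CPM (62.8 to 67.9) on HFD. Lpl thus came mainly from cells other than endothelium. Of all Lpl UMIs, 50.1% in LFD but 19.6% in HFD lay in Wt1+ stromal-like cells, and 13.2% and 37.8% in progenitor-like cells, which were 221 cells in LFD and 582 in HFD. This division rests on the naming, as 1232 cells of Wt1+ stromal-like clusters were closest to progenitors by their own markers, and cluster 1 of that type had 11 of 14 progenitor markers. In mesothelial-like cells, at 10.5 and 9.44 CPM, and in B- and plasma-like cells Lpl was near or below the free RNA estimate.

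Gpihbp1, the endothelial anchor of LPL, stood at 1219 CPM (1184 to 1255) on LFD against 2012 CPM (1957 to 2069) on HFD in endothelial-like cells. The next of the 9 types, macrophage-like cells, had 12.6 and 16.7 CPM, beside a free RNA estimate of 11.6 and 4.26 CPM and a highest lineage estimate of 20.9 and 24.2 CPM. In Wt1+ stromal-like cells it was at 0.994 and 1.13 CPM. Endothelial-like cells held 94.4% of all Gpihbp1 UMIs in LFD and 85.9% in HFD. Another 10.4% of the HFD UMIs lay in the 70 mural-like cells described below.

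Angptl4, the secreted inhibitor of LPL, was the most even of the genes among non-immune cells. It stood at 349.7 CPM (331 to 369) on LFD against 382 CPM (358 to 407) on HFD in endothelial-like cells and at 359 CPM (335 to 383) on LFD against 289 CPM (276 to 303) on HFD in progenitor-like cells. The LFD intervals of these 2 types overlapped, and so their order there cannot be told from counting error. Wt1+ stromal-like, cycling Wt1+ stromal-like and mesothelial-like cells lay together between 224 and 272 CPM. Macrophage-like cells had only 31.9 and 38.6 CPM, beside a free RNA estimate of 49.4 and 14.4 CPM and a highest lineage estimate of 88.8 and 81.7 CPM, and B-, plasma- and ILC2-like cells less than 10 CPM.

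Cd36, the fatty acid translocase and scavenger receptor, was at 1617 CPM (1577 to 1658) on LFD against 3535 CPM (3462 to 3609.9) on HFD in endothelial-like cells and at 404 CPM (379 to 429) on LFD against 839 CPM (808 to 870.1) on HFD in macrophage-like cells. These 2 types held 79.3% and 13.2% of its LFD UMIs and 63.8% and 20.8% of its HFD UMIs, of which another 11% lay in mural-like cells. B-like cells lay above background at a low level, 23.8 and 24.8 CPM against an estimate of 9.81 and 13 CPM, and so did plasma-like cells at 4.49 and 5.50 CPM, though neither type was above the highest lineage estimate. For B-like cells that estimate came from endothelial markers, with Pecam1 at 99.3 and 99.1 CPM. In the Wt1+ stromal, cycling and mesothelial-like cells Cd36 was at 2.07 to 3.49 CPM, not above the estimate of either library, and in progenitor-like cells it was at 12.5 and 15.5 CPM, above it in HFD alone and there under the highest lineage estimate of 37.7 CPM. The gene was thus mainly shared by endothelium and macrophages.

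Fabp4, the adipocyte-type fatty acid-binding protein, had more UMIs than any other gene in endothelial-like cells of both libraries, with 23880.2 CPM (23725 to 24036) on LFD against 36219 CPM (35983 to 36456) on HFD. At 1000 UMIs per cell it was found in 99.7% and 99.8% of them, with a median of 28 and 40 UMIs. Next of the compared types were Wt1+ stromal-like cells with 483 and 670.3 CPM, macrophage-like cells with 434 and 510.0 CPM, progenitor-like cells with 482 and 485 CPM and, in HFD, mesothelial-like cells with 508 CPM. In macrophage-like cells, for which FABP4 is often named as a marker, 6 of 598 LFD cells and 6 of 531 HFD cells held 49.6% and 43.9% of the UMIs, and the level was under the highest lineage estimate of 543 and 620.4 CPM. In B-, plasma- and ILC2-like cells Fabp4 did not lie above the free RNA estimate, which for B-like cells was 161 and 141 CPM beside 59.2 and 79.3 CPM measured.

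Fabp5, the epidermal-type fatty acid-binding protein, was spread more widely. It stood at 1658 CPM (1617 to 1699) on LFD against 1669 CPM (1618 to 1720.1) on HFD in endothelial-like cells, at 1156 CPM (1115 to 1199) on LFD against 746 CPM (718 to 776) on HFD in macrophage-like cells, and at 446 and 794 CPM in mesothelial-like and 427 and 616 CPM in cycling Wt1+ stromal-like cells. Macrophage-like cells were above mesothelial-like cells in LFD but below them in HFD, where the mesothelial interval was 779 to 809.7 CPM. Progenitor-like cells, the richest stromal type in Lpl, had the least Fabp5 of the non-immune types, 81.4 and 106 CPM. The LFD level was background, beside an estimate of 90.2 CPM, and the HFD level was under the highest lineage estimate of 128 CPM. For each Fabp5 UMI there were 14.4 of Fabp4 in LFD and 21.7 in HFD endothelial-like cells, whereas Fabp5 had more UMIs than Fabp4 in both libraries of mesothelial-like, cycling Wt1+ stromal-like and macrophage-like cells.

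Rbp7, the retinol-binding relative of the FABPs, was at 698 CPM (671 to 725) on LFD against 829 CPM (794 to 866) on HFD in endothelial-like cells, which held 96.5% of its UMIs in LFD and 87.8% in HFD. No other compared type reached 5 CPM, and macrophage-like cells at 4.97 CPM in HFD were under the highest lineage estimate of 9.77 CPM. Plin2, the droplet coat protein found in cells without a large droplet, was highest in macrophage-like cells at 1079 CPM (1039 to 1120.3) on LFD against 1335 CPM (1297 to 1374) on HFD. Among the 9 types compared, endothelial-like cells followed at 210.5 and 298 CPM and, in LFD, ILC2-like cells at 222 CPM, whose interval overlapped the endothelial one. In HFD, ILC2-like cells at 159.8 CPM were level with the cycling Wt1+ stromal-like cells at 159 CPM. The stromal and mesothelial types lay between 78.9 and 178 CPM, and plasma-like cells had the least, 8.20 and 8.52 CPM, not above the highest lineage estimate of 7.38 and 9.48 CPM.

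Types with too few cells for a comparison between diets added 3 facts. The mural-like cluster, of 12 LFD and 70 HFD cells, had 17755 CPM (16913 to 18629) on LFD against 34638 CPM (34112 to 35169.7) on HFD of Fabp4, with 1161 and 3170.4 CPM of Cd36 and 586 and 1276 CPM of Gpihbp1. It also had all 10 endothelial markers, at a sum of 3962 and 6984 CPM, and 54 of its cells were endothelial and 17 mural by their own markers, so that its name is uncertain. Neutrophil-like cells, at 1264 and 1022 UMIs a cell, had 4468 and 2941 CPM of Fabp4 and 268 and 149.5 CPM of Gpihbp1, with Fabp4 not above the highest lineage estimate of 4449 and 2671 CPM and Gpihbp1 above that of 171 CPM in LFD alone. In them, the LFD and HFD ratio of Fabp4 to Gpihbp1 UMIs was 16.7 and 19.7, beside 19.6 and 18.0 in endothelial-like cells, and in HFD a single cell held 92.9% of the Fabp4 UMIs. Plin2 in neutrophil-like cells was at 688 and 1196 CPM, above the highest lineage estimate of 446 and 286 CPM in each library. Among dendritic-like cells, the small Ccr7- and Ccl22-led cluster of 21 LFD and 9 HFD cells had 1227 and 4594 CPM of Fabp5, from 125 and 277 UMIs. The Xcr1- and Clec9a-led cluster had 15.4 CPM (9.29 to 24.1) over both libraries.

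The diets were compared within each type to ask where fatty acid handling differed with the diet. A gene was counted as higher or lower in HFD when its CPM differed at least 1.5-fold and the counting interval of the ratio lay on 1 side of 1, with at least 50 UMIs over the 2 libraries. Of 72 pairs of a gene and a type, 55 had enough UMIs, and 11 were higher and 4 lower in HFD. Of these 15, Cd36 in Wt1+ stromal-like, Angptl4 in plasma-like and Fabp4 in ILC2-like cells were not above the free RNA estimate in either library and are read as background. The remaining 12 were Fabp4, Cd36, Lpl and Gpihbp1 in endothelial-like cells, Cd36 and Fabp5 in macrophage-like cells, Fabp5 and Lpl in Wt1+ stromal-like cells, Fabp4 and Fabp5 in mesothelial-like cells, Fabp5 in ILC2-like cells and Plin2 in B-like cells. By the highest lineage estimate 10 of them were above background in at least 1 library, without Fabp4 in mesothelial-like and Plin2 in B-like cells. For both, that estimate came from endothelial markers, among them Esam at 113 CPM in mesothelial-like and Pecam1 at 99.1 CPM in B-like HFD cells. Whether these markers measured free RNA was not tested.

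**Figure D2:**
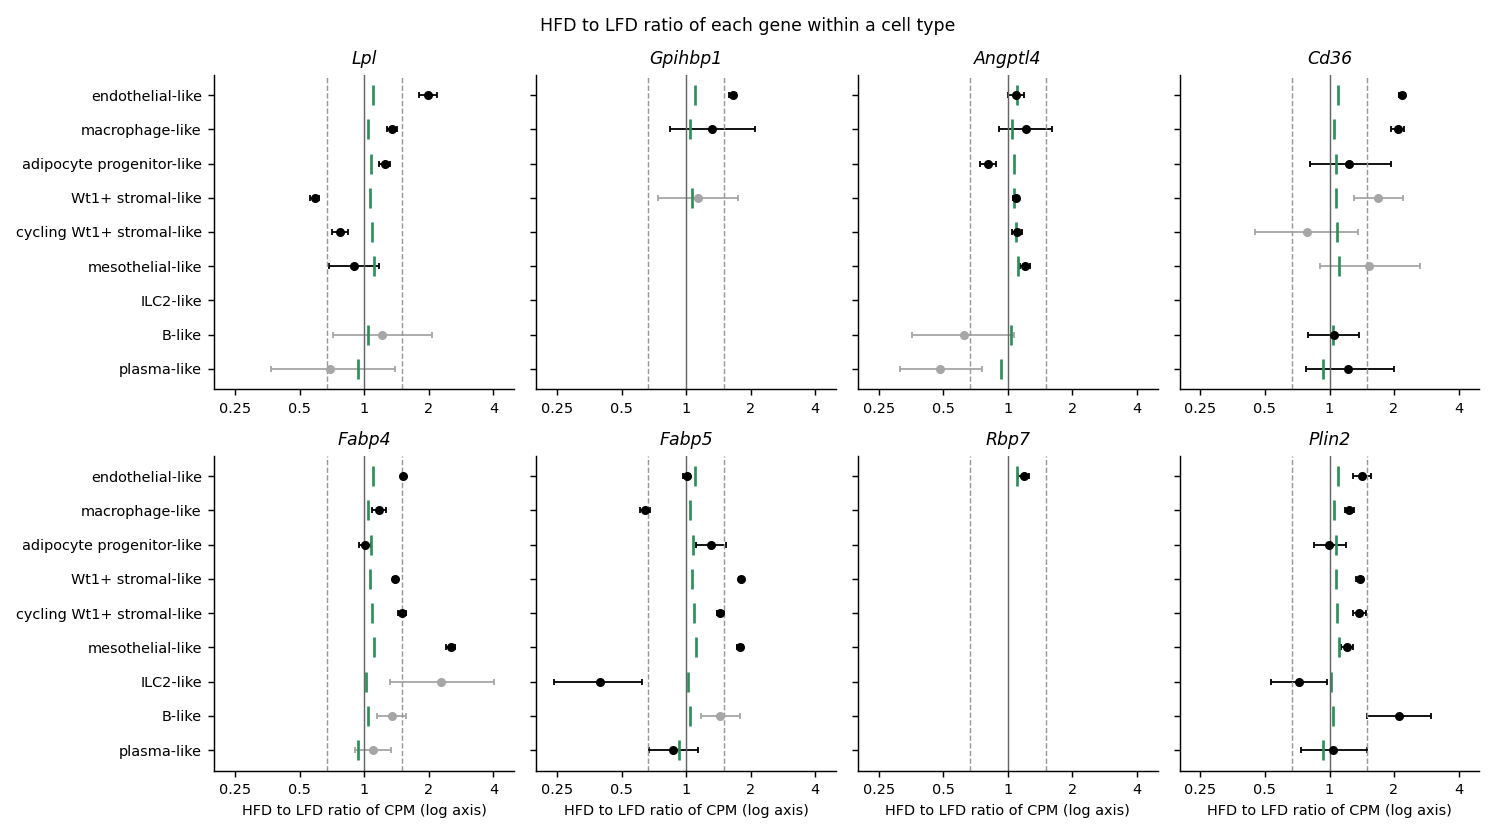
HFD to LFD ratio of CPM (log axis) for each gene in the 9 types, with exact binomial 95% counting intervals, the median ratio of all genes of the type as a green tick, and dashed lines at 1.5-fold. Grey points are levels not above the free RNA estimate in either library, and pairs with under 50 UMIs are not drawn. Cd36 lay right of the 1.5-fold line in endothelial- and macrophage-like cells, and Fabp5 lay left of it in macrophage- and ILC2-like cells.

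In endothelial-like cells, 4 of 8 genes were higher in HFD and none lower, where 15.8% of 9028 genes were higher and 6.99% lower by the same rule. The median ratio of the 8 was 1.47, and that of all genes was 1.10. Cd36 went from 1617 to 3535 CPM, a ratio of 2.19 (2.12 to 2.26). Lpl had a ratio of 1.98 (1.79 to 2.19), Gpihbp1 of 1.65 (1.59 to 1.72) and Fabp4 of 1.52 (1.5 to 1.53). Lipase, anchor, receptor and binding protein were thus all higher in the HFD library, whereas Fabp5, at a ratio of 1.01 (0.968 to 1.05), Angptl4, at 1.09 (1.00 to 1.19), Rbp7, at 1.19 (1.12 to 1.26), and Plin2, at 1.42 (1.28 to 1.57), did not pass the rule. Scaled by the median ratio of all genes instead of total UMIs, Fabp4 and Gpihbp1 no longer passed, at 1.34 and 1.46, and as a mean of per-cell CPM, in which shallow cells weigh as much as deep ones, neither did Fabp4, Gpihbp1 and Lpl, at 1.37, 1.36 and 1.19.

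The endothelial-like cells fell into 2 clusters whose proportion differed with diet. Cluster 10, led by Aqp7, Cldn5 and Btnl9 of the endothelial lists beside Cfd and Car3 of the adipocyte list, had 326 LFD and 400 HFD cells, and cluster 12, led by Mest, Esm1, Apln and Plvap, had 336 and 204. Of 8 cycling markers, 7 marked cluster 12 and 0 cluster 10, and their sum was 889.8 and 544 CPM in cluster 12 and 173 and 32.7 CPM in cluster 10. Median depth was 6974 UMIs in cluster 12 and 2101 in cluster 10. Cluster 10 was the richer in most of the genes: over both libraries it had 646 CPM (611 to 683) of Lpl against 80.1 CPM (71.9 to 89.0) in cluster 12, 4146 CPM (4056 to 4238) of Cd36 against 1589.6 CPM (1552 to 1628), and 2369.6 CPM (2302 to 2439) of Gpihbp1 against 1161 CPM (1129 to 1194). Rbp7 and Angptl4 were near equal in the 2 clusters, at 733 and 757 CPM for Rbp7 and 351 and 368 CPM for Angptl4.

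Within the clusters, examined after the data had been seen, these 4 ratios were smaller, apart from Lpl in cluster 12. Cd36 remained past 1.5-fold in both, with 2916 and 5079 CPM in LFD and HFD cells of cluster 10, a ratio of 1.74 (1.66 to 1.83), and 1250.4 and 2312 CPM in cluster 12, a ratio of 1.85 (1.76 to 1.94). Lpl differed by less than counting error in cluster 10, at 639 and 652 CPM, a ratio of 1.02 (0.911 to 1.14), but was 55.0 and 134 CPM in cluster 12, a ratio of 2.43 (1.96 to 3.02). Gpihbp1 had a ratio of 1.27 (1.19 to 1.34) in cluster 10 and of 1.57 (1.48 to 1.66) in cluster 12. For Fabp4 the ratios were 1.25 (1.24 to 1.27) and 1.3 (1.29 to 1.32), both short of 1.5-fold. Of the 4 genes, only Cd36 therefore passed the rule in each cluster.

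**Figure D3:**
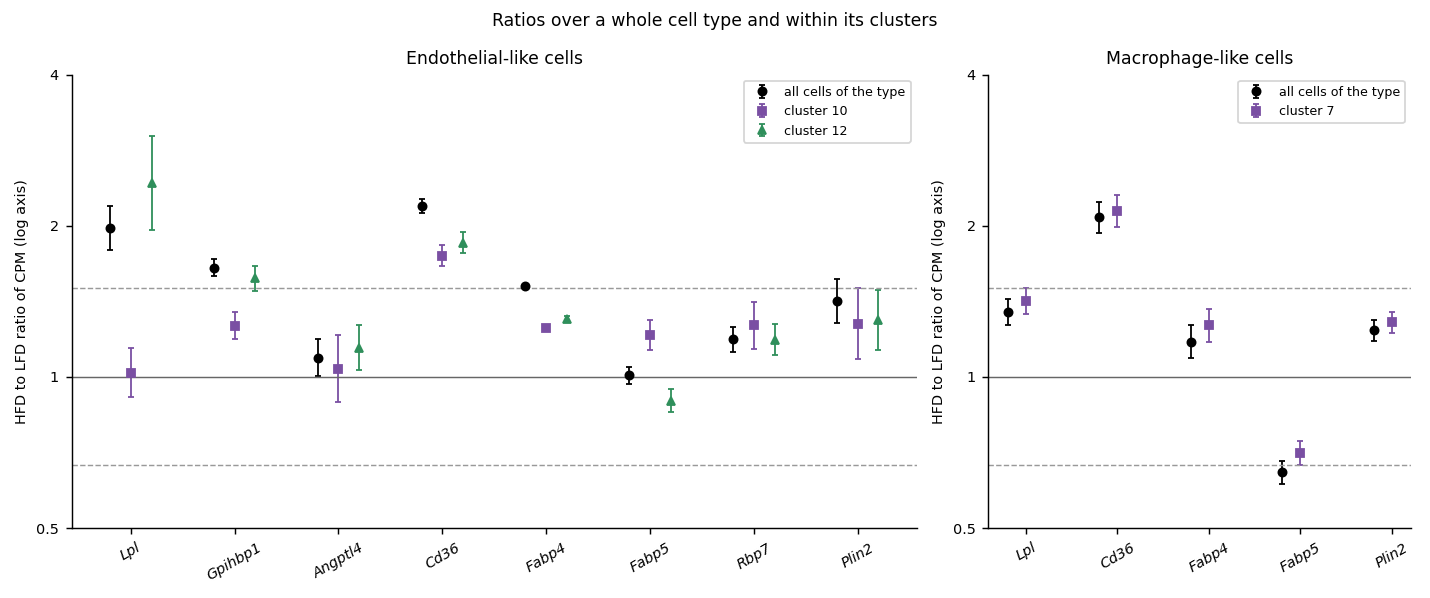
HFD to LFD ratio of CPM (log axis, exact binomial 95% counting intervals) over all endothelial-like or macrophage-like cells and within their clusters, with dashed lines at 1.5-fold. In endothelial-like cells Cd36 lay above the upper line in both clusters and Lpl in cluster 12 alone. In macrophage-like cells cluster 7 gave nearly the values of the whole type.

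Other transcripts moved with these genes in the same cells. The summed capillary list (Rgcc, Car4, Btnl9, Cd300lg, Kdr and Aqp7) gave 2179 CPM in LFD and 3523 CPM in HFD endothelial-like cells, and the 10 general endothelial markers were at 8058 and 10228 CPM. Of the latter Cldn5 went from 1245 to 2489 CPM, while Emcn was at 995 and 727, Egfl7 at 1225 and 1022 and Eng at 589 and 566 CPM. The 9 adipocyte markers, of which 6 were lower and 3 higher in HFD, summed to 273 and 176 CPM. Adipoq was at 11.3 and 4.41 CPM, Lipe at 63.4 and 84.6 CPM and Plin1 at 1.58 and 1.20 CPM. In cluster 10 the adipocyte list was at 986 and 293 CPM. The median depth of endothelial-like cells was 3984 UMIs in LFD and 2915 in HFD. The part of these differences in the values above was not tested.

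After each cell had been thinned to 1000 UMIs, Cd36 was found in 77.5% (74.0 to 80.7%) of LFD and 91.7% (89.1 to 93.8%) of HFD endothelial-like cells, and Lpl in 22.7% (19.5 to 26.2%) and 36.0% (32.0 to 40.1%). Gpihbp1 was found in 68.4% (64.6 to 72.1%) and 80.6% (77.1 to 83.8%), while in B-like cells, which should lack it, it was found in 0% and 0.49%. Thinning left out 41 LFD and 37 HFD endothelial-like cells with fewer UMIs, and without it Cd36 was in 95.3% and 97.5%. Plin2 was found in 18.5% (15.5 to 21.8%) and 27.5% (23.9 to 31.4%) of the thinned cells. The shares of Fabp5, Rbp7 and Angptl4 had intervals that overlapped between the diets, and Fabp4 was in nearly every cell of both libraries.

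Among single endothelial-like cells at 1000 UMIs, Fabp4 ranged from 0 to 88 UMIs in LFD and from 0 to 124 in HFD. Across the 621 LFD and 567 HFD cells, which share a library and its 2 clusters, the rank correlation of Fabp4 with Cd36 was 0.54 and 0.50, and that of Fabp4 with Gpihbp1 0.38 and 0.38. Cells rich in the binding protein were thus also the richer in receptor and anchor, given as a description.

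As the reporter marks past Cyp1a1 activity, the genes were also described beside current Cyp1a1 transcript, in cells with and without a Cyp1a1 UMI. In cluster 12, 228 LFD cells with Cyp1a1 had 1869 CPM of Fabp5 and 108 without had 1253. In HFD the 94 cells with and the 110 without had 1932 and 1029 CPM. Fabp4 and Cd36 had the same order, with 1387 and 909 CPM of Cd36 in LFD and 2651 and 1911 in HFD, and so had Rbp7, at 818 and 458 CPM in LFD and, with intervals that overlapped, 894 and 792 in HFD. Lpl and Plin2 had overlapping intervals in each library. Gpihbp1 and Angptl4 had the opposite order. Gpihbp1 was at 911 and 1161 CPM in LFD and 1259.9 and 1878 CPM in HFD. In cluster 10 Fabp5 had the other order, at 1509 and 1669 CPM in LFD and 1791 and 2118 CPM in HFD, where only the LFD intervals overlapped. Cd36 there was at 2972 and 2593 CPM in LFD and 5149 and 4808 CPM in HFD, with intervals that overlapped in each library. Fabp4 was at 40300 and 38463 CPM in LFD and 50174.5 and 49893 CPM in HFD, where only the HFD intervals overlapped. Angptl4 was at 354 and 284 CPM in LFD and 368 and 311 CPM in HFD, overlapping in each library. Gpihbp1 there was at 2079.8 and 1937 CPM in LFD and 2574 and 2726 CPM in HFD, with intervals that overlapped in each library. Rbp7 in cluster 10 was at 639 and 624 CPM in LFD and 886 and 493 CPM in HFD, where only the HFD intervals lay apart. Depth moved with the split, as cluster 12 cells with Cyp1a1 had a median of 8106 UMIs in LFD and 7042 in HFD, against 6679 and 4412 without, and its part was not tested.

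In macrophage-like cells Cd36 was higher and Fabp5 lower in HFD, 1 and 1 of 7 genes with enough UMIs, where 6.02% of 7960 genes were higher and 3.52% lower. Cd36 was at 404 CPM (379 to 429) on LFD against 839 CPM (808 to 870.1) on HFD, a ratio of 2.08 (1.93 to 2.23). Fabp5 was at 1156 CPM (1115 to 1199) on LFD against 746 CPM (718 to 776) on HFD, a ratio of 0.646 (0.612 to 0.681). Receptor and binding protein thus differed in opposite directions in the same cells. Lpl, at a ratio of 1.35 (1.27 to 1.43), Plin2, at 1.24 (1.18 to 1.3), and Fabp4, at 1.17 (1.09 to 1.27), lay above 1 but within 1.5-fold, and the median ratio of all genes was 1.04. At 1000 UMIs per cell, however, the mean of Fabp4 was 0.419 UMIs in LFD and 0.403 in HFD, so its order depended on how cells were weighted.

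Most macrophage-like cells, 578 in LFD and 450 in HFD, belonged to cluster 7, led by genes such as Mmp12, Gpnmb and Trem2 of lipid-associated macrophages. The 20 LFD and 81 HFD cells of cluster 19 were led by Lyve1, Cd163 and Folr2 of resident macrophages. Fabp5 marked the difference between them, with 998 CPM (971 to 1025) over both libraries in cluster 7 and 83.9 CPM (60.5 to 113) in cluster 19. Cluster 7 also had the more Lpl, 904 CPM (879 to 929.9) beside 332 CPM (283 to 386), and the more Plin2, 1257 CPM (1228 to 1287) beside 885 CPM (805 to 972). Within cluster 7 Cd36 still had a ratio of 2.14 (1.99 to 2.31). Fabp5 had 1191 and 839.6 CPM, a ratio of 0.705 (0.668 to 0.744), no longer past 1.5-fold though still below 1, and with doublets left in the ratio over all macrophage-like cells was 0.697. Lpl in cluster 19 was at 71.7 and 384 CPM, a ratio of 5.36 (2.41 to 14.8) from few LFD cells.

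At 1000 UMIs per cell, Cd36 was found in 24.8% (21.3 to 28.6%) and 41.7% (37.4 to 46.1%) of all macrophage-like cells, and Fabp5 in 35.7% (31.8 to 39.8%) and 21.6% (18.2 to 25.4%). These shares moved with the levels, and in Wt1+ stromal-like cells, where Cd36 was at background, its share was 0.0951% and 0.273%.

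**Figure D4:**
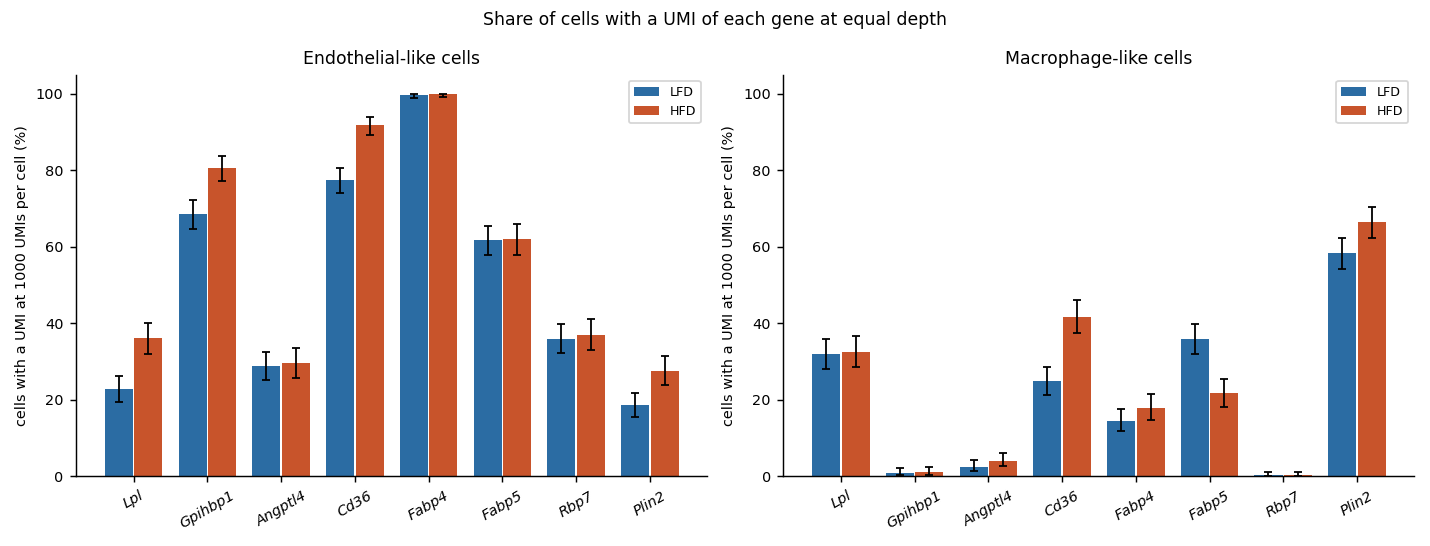
Share of cells with at least 1 UMI of each gene after thinning every cell to 1000 UMIs, in LFD (blue) and HFD (orange), with exact binomial 95% intervals. The Cd36 bars were higher in HFD in both types, and the Fabp5 bar was lower in HFD in macrophage-like cells.

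In Wt1+ stromal-like cells, the largest type, Fabp5 was higher and Lpl lower in HFD. With Cd36, which was at background, 2 of 7 genes were higher and 1 lower, where 6.84% of 13142 genes were higher and 6.51% lower. Fabp5 was at 318 CPM (313 to 322) on LFD against 572 CPM (564 to 579) on HFD, a ratio of 1.80 (1.76 to 1.84). Lpl was at 111 and 65.3 CPM, a ratio of 0.588 (0.56 to 0.616). Fabp4, at 1.39 (1.36 to 1.41), and Plin2, at 1.38 (1.33 to 1.44), were above the median ratio of all genes, 1.07, but within 1.5-fold, and Angptl4 had a ratio of 1.09 (1.06 to 1.12).

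Different clusters held these cells in the 2 libraries. Cluster 0 held 1906 of the 2207 HFD cells, and clusters 1, 4 and 6 held 1723, 1200 and 979 of the 4217 LFD cells. Clusters 0 and 6 had 8 of 10 mesothelial markers, as many as of the Wt1+ stromal list, and this tie was given to Wt1+ stromal. Cluster 1 had 1 of 10 mesothelial and 11 of 14 progenitor markers. Ratios over the whole type thus set clusters with unlike mesothelial markers beside each other. Lpl was at 213 CPM over both libraries in cluster 1 and at 44.7 to 56.6 CPM in the other three. Within clusters its ratio was 1.08 (0.942 to 1.25) in cluster 0, 1.31 (1.19 to 1.44) in cluster 1, 1.07 (0.833 to 1.35) in cluster 4 and 0.566 (0.348 to 0.871) in cluster 6. The lower Lpl of the whole type was therefore seen within 1 of the 4 clusters, and in cluster 1, the richest in Lpl, it was higher in HFD. With each cell assigned to a type by its own markers rather than by its cluster, the ratio over all Wt1+ stromal-like cells was 0.88, short of 1.5-fold.

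For Fabp5 the ratios within clusters were 1.23, 0.869, 1.52 and 1.89 in clusters 0, 1, 4 and 6, so that it was lower in HFD in cluster 1 alone. For Fabp4 they were 1.82, 0.835, 1.49 and 0.991. Plin2 ratios ran from 1.12 to 1.31 and those of Angptl4 from 1.00 to 1.19. The cycling Wt1+ stromal-like cells, a single cluster in both libraries, had none of 6 genes past the rule, where 7.19% of 11162 genes were higher and 3.46% lower. Their Fabp4 ratio was 1.5 (1.44 to 1.56), a little under the threshold before rounding, that of Fabp5 1.44 (1.39 to 1.49), and that of Lpl 0.772 (0.707 to 0.842).

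**Figure D5:**
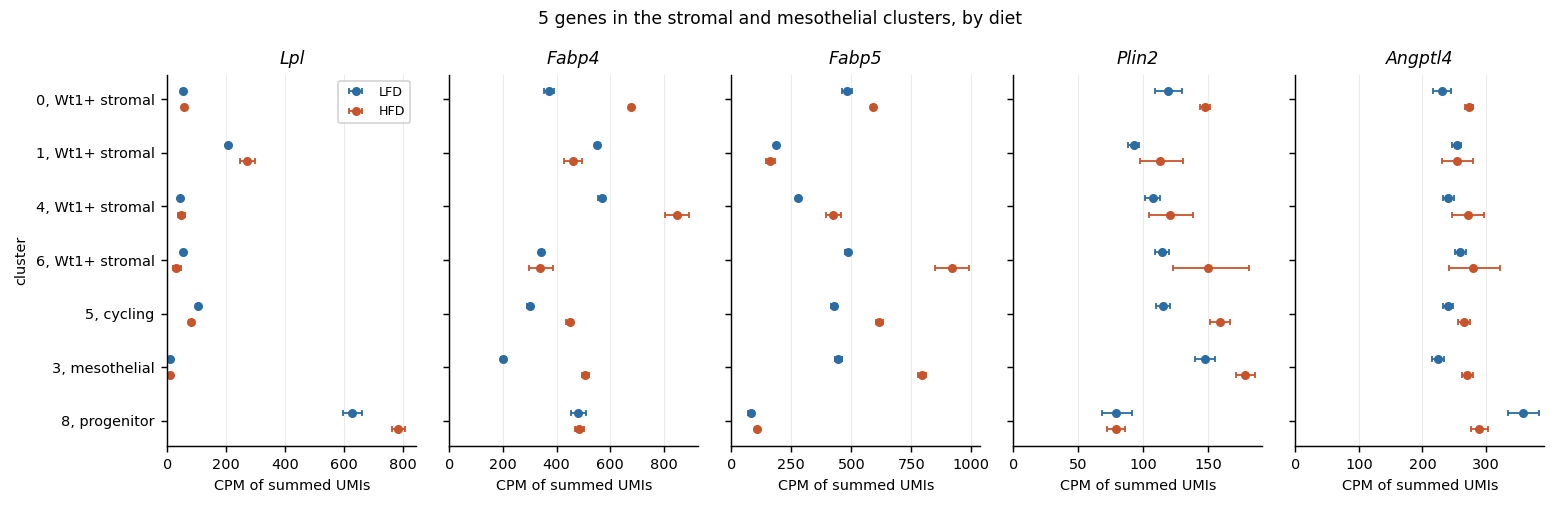
Level (CPM of summed UMIs, linear axis from 0, exact 95% Poisson intervals) of 5 genes in the 4 Wt1+ stromal-like clusters, the cycling, the mesothelial-like and the progenitor-like cluster, LFD in blue and HFD in orange. Lpl was highest in the progenitor-like cluster, and cluster 1 led the Wt1+ stromal-like clusters, while Angptl4 had similar levels in every cluster.

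Mesothelial-like cells, the Msln+ and keratin+ covering of the fat pad, had 2 of 6 genes higher and none lower in HFD, where 11.4% of 11192 genes were higher and 3.35% lower. Fabp4 was at 201 CPM (193 to 210.1) on LFD against 508 CPM (495 to 520.1) on HFD, a ratio of 2.52 (2.40 to 2.65). The LFD level was not above its free RNA estimate of 230.4 CPM, while the HFD level was above that of 92.1 CPM but not above the estimate from endothelial markers, 545 CPM. Fabp5 was at 446 CPM (433 to 459) on LFD against 794 CPM (779 to 809.7) on HFD, a ratio of 1.78 (1.72 to 1.84). Plin2 and Angptl4 had ratios of 1.21 (1.13 to 1.29) and 1.21 (1.14 to 1.27), and the median of all genes was 1.11. At 1000 UMIs per cell Fabp4 was found in 17.3% (14.6 to 20.4%) of LFD and 30.2% (27.0 to 33.6%) of HFD mesothelial-like cells. The 10 endothelial markers summed to 80.6 and 130.1 CPM in these cells, of which Esam alone was 66.9 and 113 CPM and the other 9 were 13.7 and 16.6 CPM. There were 184 and 597 Fabp4 UMIs for each of Gpihbp1, from 11 Gpihbp1 UMIs in each library, against 19.6 and 18.0 in endothelial-like cells.

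Adipocyte progenitor-like cells had none of 6 genes past the rule, although 12.8% of 9519 genes were higher and 4.74% lower. Fabp4 was at 482 and 485 CPM, a ratio of 1.01 (0.94 to 1.08), and Plin2 at 78.9 and 78.9 CPM, a ratio of 1 (0.843 to 1.19). Both intervals ended short of 1.5-fold. Lpl had a ratio of 1.25 (1.18 to 1.32) and its inhibitor Angptl4 a ratio of 0.807 (0.744 to 0.877), on opposite sides of 1. Lpl was found in 41.1% (34.5 to 47.9%) of LFD and 47.8% (43.7 to 52.0%) of HFD progenitor-like cells at 1000 UMIs.

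In B-like cells 1 of 6 genes was higher and none lower, where 7.11% of 8688 genes were higher and 4.05% lower. This was Plin2, at 11 CPM (8.38 to 14.3) on LFD against 23.2 CPM (18.8 to 28.3) on HFD, a ratio of 2.10 (1.5 to 2.96), of which the LFD level was under its free RNA estimate of 16.2 CPM and the HFD level above that of 15.2 CPM but under the highest lineage estimate of 49.7 CPM. That highest estimate came from endothelial markers, of which Pecam1 was at 99.1 CPM and Cdh5 at 1.91 CPM in HFD B-like cells. Whether it measured free RNA was not tested. In plasma-like cells 1 of 6 was lower, where 2.61% of 9360 genes were higher and 6.27% lower: Angptl4, with 33 and 64 UMIs or 6.45 and 3.12 CPM, is read as background. LFD plasma-like cells lay mostly in cluster 13, which held no HFD cell, and HFD cells in clusters 9 and 11.

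In ILC2-like cells, group 2 innate lymphoid cells, 1 of 3 genes was higher and 1 lower, where 14.3% of 2798 genes were higher and 9.22% lower. Fabp5 had 92 UMIs in 111 LFD cells and 25 in 101 HFD cells, or 149 CPM (119.9 to 182) on LFD against 58.8 CPM (38.0 to 86.7) on HFD, a ratio of 0.395 (0.243 to 0.62). Plin2 was at 222 and 159.8 CPM, a ratio of 0.721 (0.531 to 0.972). The Fabp4 of these cells, 37.2 and 84.6 CPM, is read as background, and the HFD level of Fabp5 was under the highest lineage estimate of 95.8 CPM.

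Around the 8 genes, 82 genes of lipid uptake, lipolysis, storage, oxidation, retinoid binding and lipid-sensing transcription were read with the same rule, without a free RNA estimate. In endothelial-like cells 11 of 54 with enough UMIs were higher and 3 lower, beside 15.8% and 6.99% of all genes, with a median ratio of 1.16 beside 1.10 for all genes. Aqp7, the glycerol channel, had 61.6 and 180.5 CPM, a ratio of 2.93 (2.50 to 3.45). It is among the leading genes of cluster 10, which held 326 LFD and 400 HFD cells, and the ratios of listed genes were not taken within clusters. The monoglyceride lipase Mgll had 780.1 and 1426 CPM, a ratio of 1.83 (1.74 to 1.92), the caveolin Cav2 a ratio of 1.92, the nuclear receptor Pparg 1.78 and the homeobox factor Meox2 1.78. Among those lower in HFD were the desaturase Scd1, at a ratio of 0.413, and the acyl-CoA synthetase family member Slc27a3, at 0.589. The 9 adipocyte markers, 6 lower and 3 higher in HFD, summed to 273 and 176 CPM in these cells. The part of adipocyte RNA in these 2 ratios was not tested.

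In macrophage-like cells 8 of 51 were higher and 3 lower, beside 6.02% and 3.52% of all genes, with a median ratio of 1.07 beside 1.04. Among those with at least 100 UMIs, Cav2 had a ratio of 2.24, the fatty acid transporter Slc27a1 1.80 and the oxidised lipoprotein receptor Olr1 1.60, while the desaturase Scd2 had 0.459. In Wt1+ stromal-like cells 7 and 7 of 63 were higher and lower, beside 6.84% and 6.51% of all genes. Pdk4, which spares pyruvate when fatty acids are burned, had 4.23 and 11 CPM, a ratio of 2.61 (2.21 to 3.09), and Cav1 had 115 and 223 CPM, a ratio of 1.94 (1.87 to 2.00), whereas the retinoid-binding genes Rbp4 and Crabp2 had ratios of 0.192 and 0.205. Crabp2 is among the leading genes of cluster 1, which held most of its cells in LFD, and these ratios were not taken within clusters. Pdk4 was at a level as low as that of genes read as background above. Cav1 had ratios of 1.75 in cycling and 2.01 in mesothelial-like cells.

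In the other types the counts of listed genes stand beside the shares of all genes higher and lower. They were 7 higher and 4 lower of 55 in cycling Wt1+ stromal-like cells (all genes 7.19% and 3.46%), 8 and 2 of 54 in mesothelial-like cells (11.4% and 3.35%) and 8 and 4 of 53 in progenitor-like cells (12.8% and 4.74%). In B-like cells they were 6 and 3 of 38 (7.11% and 4.05%), in plasma-like cells 2 and 6 of 45 (2.61% and 6.27%) and in ILC2-like cells 3 and 1 of 13 (14.3% and 9.22%). The median ratio of the listed genes was below that of all genes in 5 of the 9 types. Hilpda, a small droplet protein that inhibits lipolysis, reached 1085 and 2249 CPM, a ratio of 2.07 (1.88 to 2.29) in ILC2-like cells, where Plin2 had the order LFD over HFD.

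The genes most like each of the 8 were sought among 12189 genes over 24 columns, 12 types in each library, by Pearson's r of log2(CPM + 1), given as a description since columns of 1 library and related types are not independent. Gpihbp1 was most like the tight junction gene Cldn5 (r = 0.99), Cyyr1 (0.99) and Cdh13 (0.98), and Rbp7 like the endothelial guidance receptor Robo4 (0.97), Nr5a2 (0.96) and Ccm2l (0.96). For Fabp4 they were Lims2 (0.94), Ramp2 (0.94) and Bvht (0.94), and for Cd36 Pdgfb (0.93), Scarf1 (0.92) and Cd300lg (0.91). Lpl stood nearest the lysosomal protease Ctsl (0.89), the oxysterol receptor Nr1h3 (0.89) and Itga9 (0.88), and Plin2 nearest Sdcbp (0.92), Vps26a (0.90) and Mfsd1 (0.88). Fabp5 was nearest Rab11a (0.93), Ralb (0.93) and Mapk3 (0.91), and Angptl4 nearest the caveolar gene Cavin3 (0.97), Pls3 (0.97) and Npdc1 (0.97). Among the 8 themselves Fabp4 and Gpihbp1 were closest, with r = 0.89, and Cd36 and Angptl4 least alike, with r = 0.07.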

How the data were processed

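Live (DAPI-) eYFP+ SVF cells of gWAT were sequenced as 1 library per diet with droplet 3' chemistry. The submitters' processing notes name bcl2fastq 2.17.1.14, Cell Ranger 4.0.0 (which aligns with STAR), the build mm10 and Seurat 4.1.0. The authors deposited unnormalised UMI counts per gene and cell barcode, and no barcode in the deposited tables had fewer than 500 UMIs. Depth was 114311020 UMIs over 11281 barcodes in LFD and 119498750 UMIs over 9631 barcodes in HFD. Cells with 500 to 40000 UMIs, at least 100 genes and under 12.5% mitochondrial UMIs were kept, and the 922 LFD and 658 HFD cells with the highest scrublet doublet scores (a rate of 0.8% per 1000 cells) were removed. Of the barcodes, 27 were shared by the libraries.

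Both libraries were clustered together with scanpy 1.11.5 and leidenalg 0.10.2 (Python 3.11.15) on 1970 variable genes, 30 components, 20 neighbours and resolution 1, leaving out the 8 genes and the pathway lists. The 24 clusters were named from at least 3 markers, and clusters of 1 name were pooled. Cell names were rebuilt here and may differ from those of the study. UMIs were summed by type and diet and divided by all UMIs of that sum (CPM). Intervals are exact 95% Poisson, conditional binomial or Clopper-Pearson intervals (scipy 1.17.1), and a count of 0 allows up to 3 counts. With 1 library per diet no test, p-value or standard error was computed. The ratio rule was run on simulated Poisson counts, which hold counting error only. They can therefore say nothing of differences between cells, clusters or mice. Shares used cells thinned to 1000 UMIs, or 2000 as an alternative. Pathway genes were named if among the 5 highest or lowest ratios of a type past the rule with at least 100 UMIs, and genes of like pattern if among the 3 with the highest r, from genes reaching 10 CPM in a column. Gene positions came from GENCODE M21 and promoters from a RefSeq table (GRCm38.p6).

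One gene of the pathway lists is not reported by name here. The members and lists were chosen with earlier results of these data known. Alternatives were median-ratio scaling, stricter cell filters (at least 1000 UMIs, under 10% mitochondrial), no doublet removal, cells assigned one by one, no minimum count, a 2-fold rule, means of per-cell CPM, subtraction of the free RNA estimate and leaving out the 1% of cells with the most UMIs. Ratios within clusters and the highest lineage estimate of free RNA were added after the data had been seen.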

Additional observations from a re-analysis of the deposited data

Results flagged for a closer look

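Lpl, Angptl4, Fabp5 and Plin2 were higher in HFD in some types and lower in others, with counting intervals of the HFD to LFD ratio that left out 1 on both sides. With 1 library per diet, none of these differences between types was tested. The Fabp5 ratio in Wt1+ stromal-like cells was 4.56 times that in ILC2-like cells, where it rests on 92 and 25 UMIs. The Lpl ratio in endothelial-like cells was 3.36 times that in Wt1+ stromal-like cells, and within cluster 1 the latter lay above 1. For Plin2, B-like cells had a ratio 2.91 times that of ILC2-like cells, but the B-like level was under the free RNA estimate in LFD and under the highest lineage estimate in HFD. The Angptl4 ratio in mesothelial-like cells was 2.50 times that in plasma-like cells, in which Angptl4 was not above the free RNA estimate.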

How the results depend on the processing

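No paired analysis was possible because each diet had 1 library. The 11 ratios counted as higher and 4 as lower in HFD became 17 and 12 without doublet removal, 17 higher with cells assigned one by one, and 5 and 2 under a 2-fold rule. The cause was not tested, apart from the 2-fold rule, which is stricter by construction. They were 9 and 4 with median-ratio scaling, 13 and 5 with stricter cell filters, 4 lower with cells assigned one by one, and 11 and 4 with no minimum count. Of the 15, 12 were above background by the median free RNA estimate and 10 by that of the highest lineage, added after the data had been seen. Within clusters, also added after the data had been seen, the ratio in Wt1+ stromal-like cells passed to the other side of 1 for Lpl, at 1.31 (1.19 to 1.44) in cluster 1, and for Fabp5, at 0.869 (0.764 to 0.984) in cluster 1. It did so with intervals that spanned 1 for Lpl in clusters 0, at 1.08, and 4, at 1.07, and for Cd36, which was at background, in cluster 0, at 0.836. Different clusters held most of these cells in each library. Cd36 in endothelial-like cells kept a ratio of at least 1.74 under its 9 alternatives, Cd36 in macrophage-like cells at least 1.80 under 8, Fabp5 in mesothelial-like cells at least 1.62 under 7, and Fabp5 in ILC2-like cells at most 0.436 under 7. Fabp4 in mesothelial-like cells gave no ratio after subtraction of free RNA, since its LFD level was under the estimate. Intervals cover counting error only, so the spread between mice is unknown, and diet and library cannot be told apart.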
